A study of Mus musculus with 14 samples.

Results

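The CC chemokines and their receptors described here are 9 genes of the 32289 in the deposited gene table, chosen by gene name: the ligands Ccl2, Ccl7, Ccl12, Ccl8, Ccl6, Ccl9 and Ccl17, and the receptors Ccr1 and Ccr2. All 9 passed the filter on low values and were tested. They were read by bulk RNA sequencing of the ascending aorta of C57BL/6 mice killed in week 6 of an aneurysm model. The model rests on BAPN (β-aminopropionitrile), which blocks the lysyl oxidases that join collagen and elastin fibres. The groups were BAPN+SB273005 (4 libraries), BAPN+Cilengitide (3 libraries), BAPN alone (4 libraries) and PBS (3 libraries, no BAPN named). Cilengitide is a cyclic RGD peptide, and the labels class it and SB273005 as integrin αV inhibitors. The labels give no dose, age or sex, and do not say whether each library is a separate animal. The p-values therefore cover the spread among these samples, which may be technical.

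CC chemokines are small secreted proteins that bind G protein-coupled receptors on leukocytes and draw the cells towards their source. Ccr2 is carried by inflammatory monocytes, which use it to leave the bone marrow and to enter injured tissue, and its mouse ligands include Ccl2, Ccl7 and Ccl12. Ccr1 is found on monocytes, macrophages and neutrophils and is bound by Ccl6, Ccl9 and Ccl7. In arteries, the Ccl2 and Ccr2 pair is best known for the entry of monocytes into the wall of mouse models of atherosclerosis and aneurysm. Mouse Ccl8 acts mainly through Ccr8, and Ccl17, a product of dendritic cells and macrophages, acts through Ccr4.

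Each library held 49027885 to 72584877 estimated counts. Smooth muscle markers were high in every library (summed Acta2, Myh11, Tagln, Cnn1, Smtn and Lmod1 at 1162 FPKM in BAPN+SB273005 replicate 2 and at 4569 to 10580 FPKM in the other 13). In BAPN+SB273005 replicate 2, mitochondrial genes took 17.93% of the counts, against 4.1% to 10.22% elsewhere. The class II gene H2-Ea, silent in C57BL/6 mice, had 0 counts in the 3 PBS libraries and in BAPN+SB273005 replicates 1 to 3, and 83 to 130 counts in the other 8 libraries. This split follows the groups in part, so BAPN or BAPN+Cilengitide against PBS cannot be told apart from it. It also parts BAPN+SB273005 replicates 1 to 3 from all BAPN and BAPN+Cilengitide libraries.

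All 9 genes averaged higher in each of the 3 BAPN-fed groups than in PBS. Against PBS, 6 rose in BAPN+SB273005, 5 in BAPN+Cilengitide and 3 in BAPN alone, by edgeR's quasi-likelihood test with adjusted p under 0.05. Over all 13294 tested genes, 7.82% were called higher in BAPN+SB273005, 3.98% in BAPN+Cilengitide and 0.181% in BAPN alone. Ccl9, Ccl6 and Ccl17 were the members called in all 3, which share the PBS libraries. No difference between either inhibitor group and BAPN passed that threshold in any of the 9 genes. A change in the number of leukocytes or other cells and a change in RNA per cell cannot be told apart in bulk samples.

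**Figure D1:**
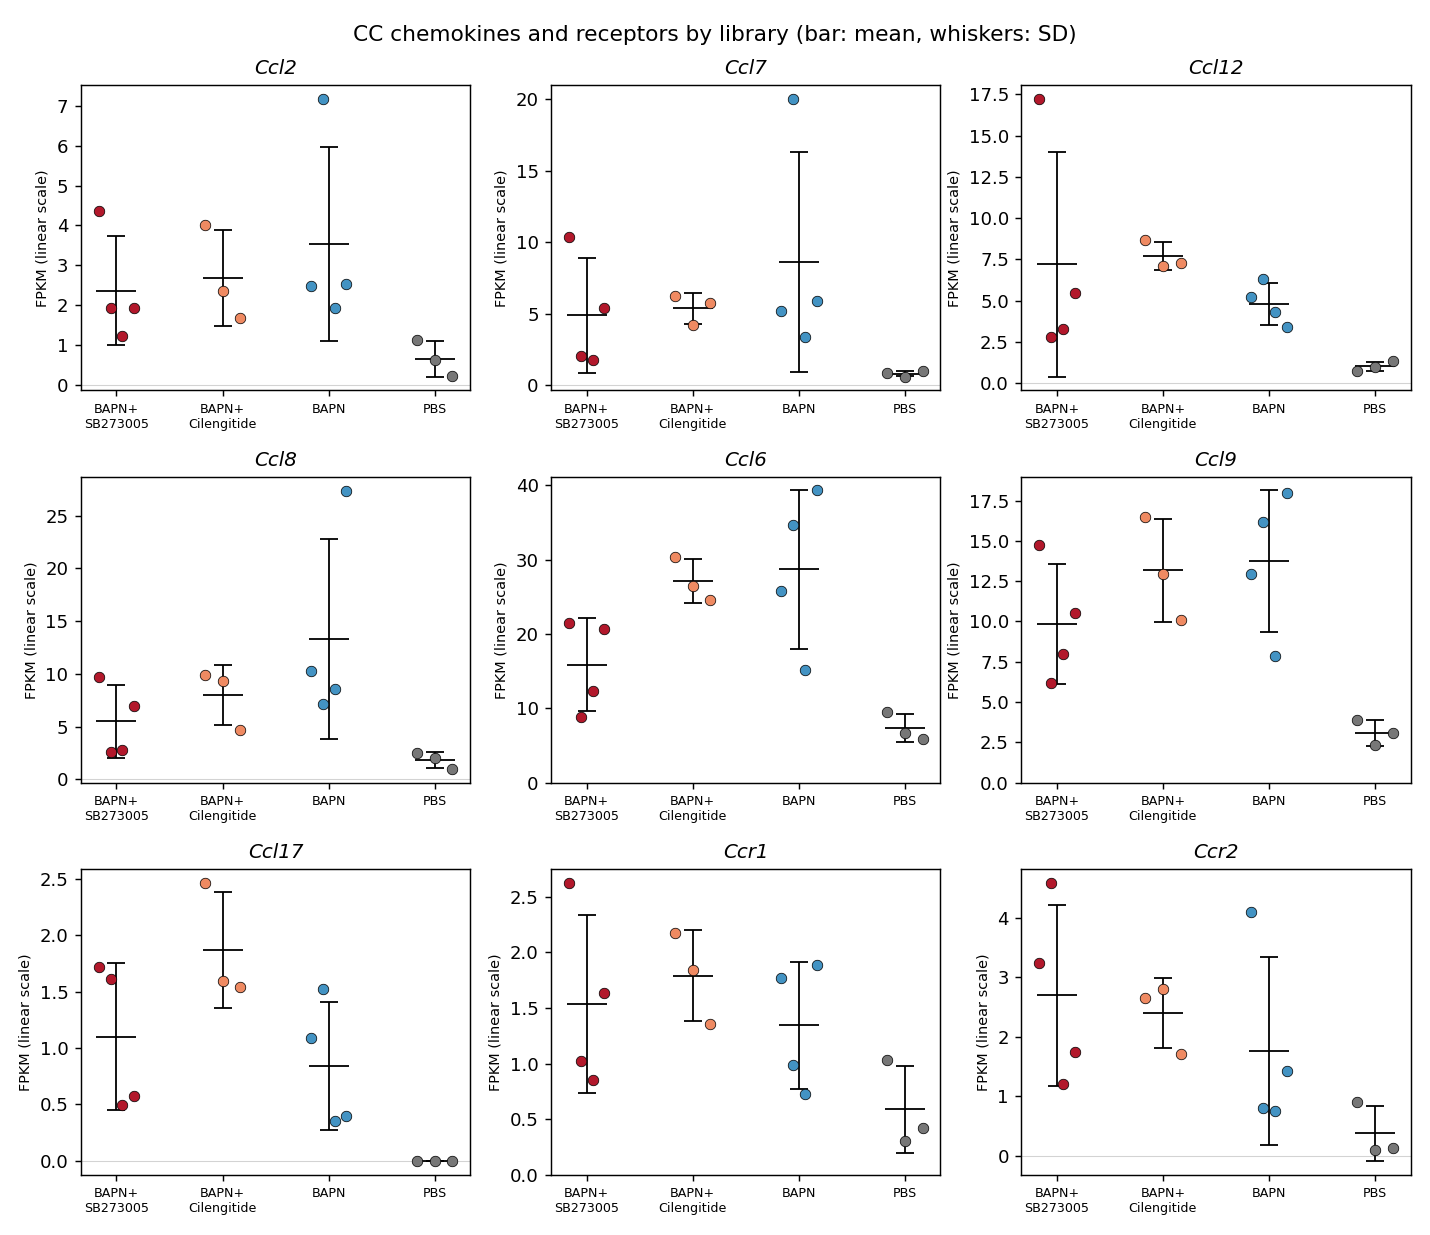
FPKM of each of the 9 genes (vertical axes, linear) in each library (points) of the 4 groups, with the group mean as a bar and the SD as whiskers. Every BAPN-fed library lies above every PBS library for Ccl2, Ccl7, Ccl12, Ccl8, Ccl9 and Ccl17, and BAPN replicate 2 stands high for Ccl2 and Ccl7 as BAPN replicate 4 does for Ccl8.

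Ccl2, Ccl7, Ccl12 and Ccl8 are the monocyte chemoattractant type and lie in 1 cluster of 81229 bases on the plus strand of chromosome 11 (mm10), with Ccl11 between Ccl7 and Ccl12. Ccl2 (chr11:82035571-82037453), the best studied ligand of Ccr2, had 4.36, 1.93, 1.23 and 1.92 FPKM in the BAPN+SB273005 libraries, 4.00, 2.35 and 1.67 FPKM with BAPN+Cilengitide, 2.49, 7.18, 1.93 and 2.54 FPKM with BAPN, and 1.12, 0.605 and 0.225 FPKM with PBS. Every BAPN-fed library was above every PBS library, and BAPN replicate 2 was the highest of the 14. No comparison passed the threshold for Ccl2: the log2 difference from PBS was 1.91 ± 0.62 (SE) in BAPN+SB273005 (adjusted p = 0.0600), 2.08 ± 0.65 in BAPN+Cilengitide (adjusted p = 0.0815) and 2.44 ± 0.63 in BAPN (adjusted p = 0.108). Without BAPN replicate 2, Ccl2 passed in BAPN+SB273005 (adjusted p = 0.0424). Counts of Ccl2 in PBS were low, at 76, 52 and 20.

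Ccl7 (chr11:82045712-82047525), which binds Ccr1, Ccr2 and Ccr3, had 10.4, 2.02, 1.73 and 5.40 FPKM in the BAPN+SB273005 libraries, 6.25, 4.17 and 5.73 FPKM with BAPN+Cilengitide, 5.14, 20.0, 3.33 and 5.90 FPKM with BAPN, and 0.824, 0.587 and 0.975 FPKM with PBS. All BAPN-fed libraries again lay above PBS, and the PBS libraries were close together. Ccl7 rose 6.35-fold in BAPN+SB273005 against PBS (log2 2.67 ± 0.72, adjusted p = 0.0307) and 6.93-fold in BAPN+Cilengitide against PBS (log2 2.79 ± 0.75, adjusted p = 0.0471). In BAPN alone the point estimate was larger, log2 3.43 ± 0.74, and missed the threshold (adjusted p = 0.0591), which it passed without BAPN+SB273005 replicate 1 or 2 (0.0401 to 0.0466). Its high library was BAPN replicate 2, without which the log2 difference was 2.58.

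Ccl12 (chr11:82101845-82103400), a Ccr2 ligand found in mice, had 17.2, 2.79, 3.30 and 5.47 FPKM in the BAPN+SB273005 libraries, 8.70, 7.12 and 7.29 FPKM with BAPN+Cilengitide, 5.21, 6.30, 4.31 and 3.38 FPKM with BAPN, and 0.766, 0.971 and 1.34 FPKM with PBS. The highest value was that of BAPN+SB273005 replicate 1, and the BAPN+Cilengitide libraries were all above the BAPN libraries. Against PBS it rose 7.08-fold in BAPN+SB273005 (log2 2.82 ± 0.58, adjusted p = 0.00957) and 7.53-fold in BAPN+Cilengitide (log2 2.91 ± 0.60, adjusted p = 0.0168). The difference in BAPN alone was log2 2.20 ± 0.56 (adjusted p = 0.104), which passed without BAPN+SB273005 replicate 1 (adjusted p = 0.0213).

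Ccl8 (chr11:82115185-82116799) had 9.74, 2.63, 2.76 and 6.96 FPKM in the BAPN+SB273005 libraries, 9.88, 9.31 and 4.70 FPKM with BAPN+Cilengitide, 10.3, 7.11, 8.54 and 27.3 FPKM with BAPN, and 2.48, 1.99 and 1.01 FPKM with PBS. BAPN replicate 4 was the highest library by far. BAPN-fed libraries were all above PBS, but 2 of the BAPN+SB273005 libraries lay near the highest PBS value. Its receptor Ccr8 reached no more than 0.121 FPKM in any library and was not tested. No comparison passed for Ccl8: the log2 difference from PBS was 1.64 ± 0.59 in BAPN+SB273005 (adjusted p = 0.0843), 2.16 ± 0.62 in BAPN+Cilengitide (adjusted p = 0.0617) and 2.86 ± 0.62 in BAPN (adjusted p = 0.0591). With 1 library left out it passed in BAPN+Cilengitide without BAPN+SB273005 replicate 1 or 2 or BAPN replicate 4 (adjusted p 0.0399 to 0.0490), and in BAPN without BAPN+SB273005 replicate 1 or 2 (0.0466 to 0.0475). Ccl11, the eosinophil chemoattractant inside the same cluster, averaged 3.61 ± 1.35 FPKM (SD, n = 4) in BAPN+SB273005, 4.94 ± 0.96 FPKM (n = 3) in BAPN+Cilengitide, 9.32 ± 3.94 FPKM (n = 4) in BAPN and 4.70 ± 1.32 FPKM (n = 3) in PBS, and passed in no comparison.

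The stretches before the starts of Ccl12 and Ccl8 are shown because these neighbours are the most alike of the member promoters at hand. They are the 250 bases before each gene's start, from RefSeq's table on GRCm38.p6, which holds 7 of the 9 genes. The Ccl12 stretch is chr11:82101595-82101844 and the Ccl8 stretch is chr11:82114935-82115184, both on the plus strand. Capitals mark TATAAA, the core of the promoter element that positions transcription start, at bases 31 to 26 before the start of Ccl12 and 32 to 27 before that of Ccl8.
Ccl12: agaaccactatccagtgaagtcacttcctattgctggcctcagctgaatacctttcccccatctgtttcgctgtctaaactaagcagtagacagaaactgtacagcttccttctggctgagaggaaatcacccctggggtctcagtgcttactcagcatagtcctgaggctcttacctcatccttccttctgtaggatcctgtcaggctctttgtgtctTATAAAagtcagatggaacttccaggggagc
Ccl8: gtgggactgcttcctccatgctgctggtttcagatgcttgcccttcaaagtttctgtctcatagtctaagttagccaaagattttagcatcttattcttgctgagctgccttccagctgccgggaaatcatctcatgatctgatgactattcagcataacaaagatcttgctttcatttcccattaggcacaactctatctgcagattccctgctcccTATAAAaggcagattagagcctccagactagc
Compared base by base at the same distance from the start, 36.0% of positions were the same between Ccl12 and Ccl8, the highest of 21 pairs of members (median 24.0%, lowest 20.0%). TATAAA on the gene's strand was found in 3 of the 7 stretches, those of Ccl12, Ccl8 and Ccl9, and in 7.59% of all 32851 stretches of this length. In Ccl9 it lay further away, at bases 92 to 87.

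Ccl6 and Ccl9 were the most abundant ligands in every group. They encode related chemokines that act on Ccr1, are known from rodents and are made in quantity by myeloid cells, and they lie side by side on the minus strand of chromosome 11 within 20169 bases. Ccl6 (chr11:83587882-83593087) had 21.5, 8.86, 12.4 and 20.7 FPKM in the BAPN+SB273005 libraries, 30.3, 26.5 and 24.6 FPKM with BAPN+Cilengitide, 25.7, 34.7, 15.1 and 39.4 FPKM with BAPN, and 9.46, 6.70 and 5.93 FPKM with PBS. The BAPN+Cilengitide and BAPN libraries all exceeded PBS, while BAPN+SB273005 replicate 2 lay within the PBS range. Ccl6 rose in all 3 groups against PBS: 2.25-fold in BAPN+SB273005 (log2 1.17 ± 0.33, adjusted p = 0.0378), 3.81-fold in BAPN+Cilengitide (log2 1.93 ± 0.36, adjusted p = 0.0120) and 3.92-fold in BAPN (log2 1.97 ± 0.34, adjusted p = 0.0400). E230016K23Rik overlaps Ccl6 on the other strand, and the strand setting of the counting is not given in the sources used here, but it reached no more than 0.277 FPKM.

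Ccl9 (chr11:83572919-83578636) had 14.8, 6.20, 7.96 and 10.5 FPKM in the BAPN+SB273005 libraries, 16.5, 13.0 and 10.1 FPKM with BAPN+Cilengitide, 12.9, 16.2, 7.89 and 18.0 FPKM with BAPN, and 3.88, 2.30 and 3.07 FPKM with PBS. No BAPN-fed library overlapped PBS. Ccl9 rose 3.34-fold in BAPN+SB273005 (log2 1.74 ± 0.32, adjusted p = 0.00616), 4.44-fold in BAPN+Cilengitide (log2 2.15 ± 0.34, adjusted p = 0.00607) and 4.49-fold in BAPN (log2 2.17 ± 0.33, adjusted p = 0.0239), each against PBS. The calls against PBS in BAPN+SB273005 and BAPN+Cilengitide held with any 1 of the 14 libraries left out.

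Their promoter stretches are shown because the 2 genes' levels moved together most closely of all member pairs, as described further on. Both are on the minus strand and printed along the gene, Ccl6 from chr11:83593088-83593337 and Ccl9 from chr11:83578637-83578886 (250 bases, GRCm38.p6). Capitals mark the longest run of bases that the 2 stretches share, 13 bases at 55 to 43 before the start of Ccl6 and at 14 to 2 before that of Ccl9.
Ccl6: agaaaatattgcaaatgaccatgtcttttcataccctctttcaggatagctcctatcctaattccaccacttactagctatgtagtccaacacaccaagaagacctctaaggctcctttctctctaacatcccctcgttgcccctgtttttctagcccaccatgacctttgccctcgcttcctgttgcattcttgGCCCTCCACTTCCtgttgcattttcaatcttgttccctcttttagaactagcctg
Ccl9: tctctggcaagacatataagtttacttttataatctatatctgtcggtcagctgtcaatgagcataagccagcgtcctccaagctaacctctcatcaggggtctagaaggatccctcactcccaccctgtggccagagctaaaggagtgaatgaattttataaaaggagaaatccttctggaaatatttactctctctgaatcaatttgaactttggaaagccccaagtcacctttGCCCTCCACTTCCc
In the other 20 pairs of members the longest shared run was 7 to 9 bases. The run sits at different distances from the start, and position by position the 2 stretches had 20.0% of bases in common. A search of both strands for the κB consensus found it in Ccl9 and Ccr1 (7.25% of all stretches hold it), the AP-1 motif TGANTCA was in Ccl9 (6.75%), and Ccl17 held the GAS motif TTCNNNGAA (7.02%) and the STAT6 consensus (5.85%). No match overlapped another. These are matches of letters in these windows.

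Ccl6 and Ccl9 made up 58.0% ± 9.4 of the summed FPKM of the 7 ligands in BAPN+SB273005 (SD, n = 4), 61.3% ± 1.2 in BAPN+Cilengitide (n = 3), 57.7% ± 3.2 in BAPN (n = 4) and 70.7% ± 2.0 in PBS (n = 3). The highest share among BAPN-fed libraries was 68.1%, against 68.4% to 72.0% in the PBS libraries, so every BAPN-fed library lay below PBS. The 7 ligands together reached 26.0 to 79.6 FPKM in BAPN+SB273005, 55.6 to 78.1 FPKM in BAPN+Cilengitide, 41.5 to 96.9 FPKM in BAPN and 12.6 to 18.5 FPKM in PBS. The 4 monocyte chemoattractants summed to 20.0 ± 15.3 FPKM in BAPN+SB273005, 23.7 ± 4.8 FPKM in BAPN+Cilengitide, 30.3 ± 11.3 FPKM in BAPN and 4.30 ± 0.83 FPKM in PBS (SD, n = 4, 3, 4 and 3). These sums and shares describe levels per length of transcript and were not tested.

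**Figure D2:**
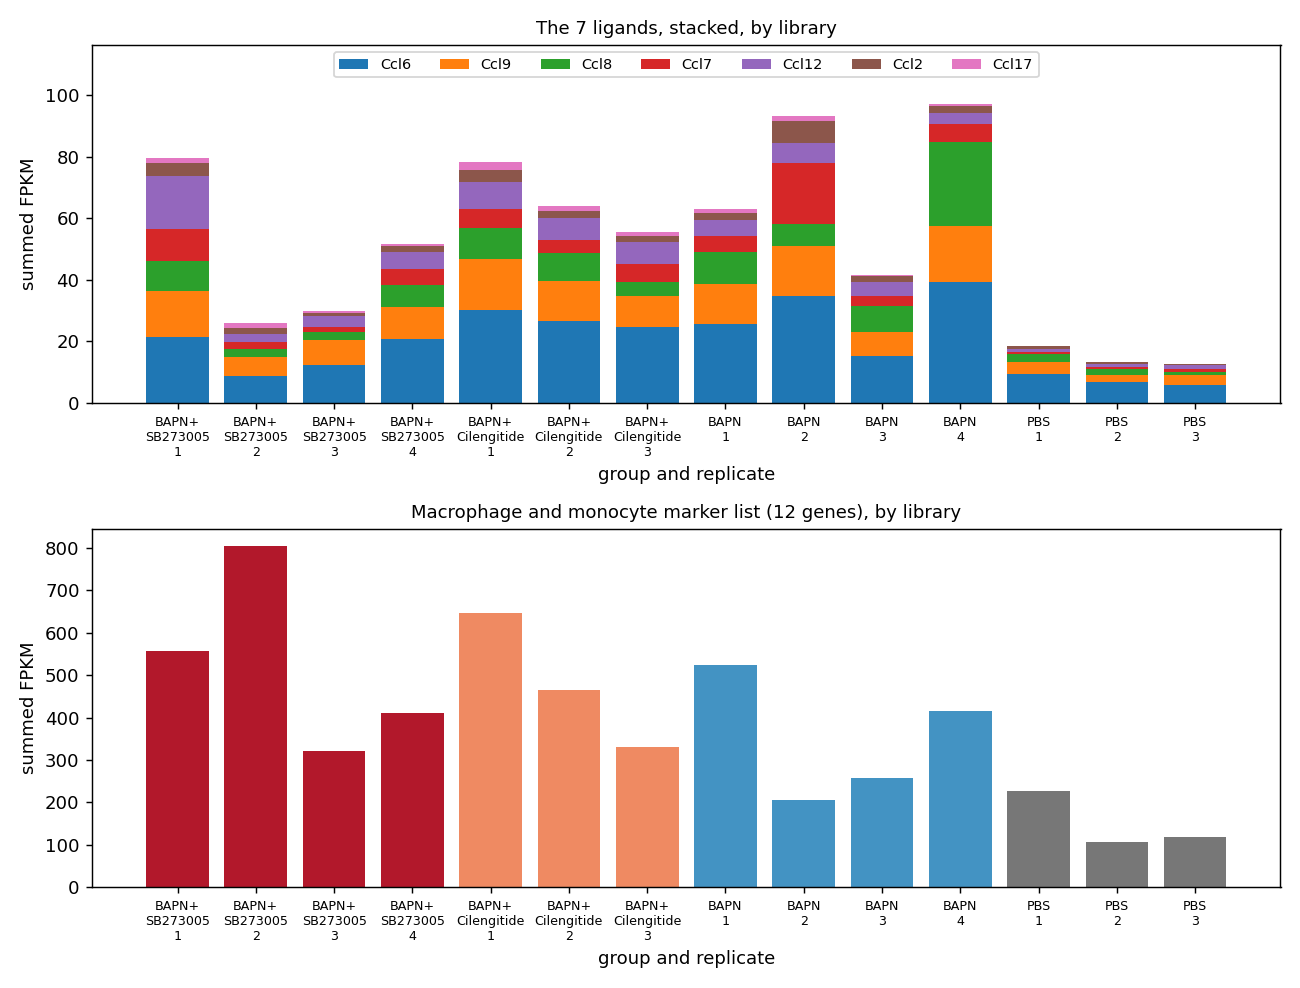
Upper panel, FPKM of the 7 ligands stacked for each library; lower panel, summed FPKM of 12 macrophage and monocyte markers for the same libraries, with groups in the same order along the horizontal axis. The ligands sum to 26.0 to 96.9 FPKM in BAPN-fed libraries and to 12.6 to 18.5 FPKM in PBS, and BAPN+SB273005 replicate 2 combines the lowest ligand sum of the BAPN-fed libraries with the highest marker sum, 804 FPKM. Most of the marker sum is the single gene Lyz2.

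Ccl17 (chr8:94810453-94812036, plus strand) was the scarcest ligand and was listed at 0 in all 3 PBS libraries. Its counts were 52, 55, 14 and 18 in the BAPN+SB273005 libraries, 80, 51 and 51 with BAPN+Cilengitide, 45, 58, 12 and 12 with BAPN, and 0, 0 and 0 with PBS. In FPKM these were 1.71, 1.62, 0.497 and 0.578 with BAPN+SB273005, 2.46, 1.60 and 1.54 with BAPN+Cilengitide, and 1.09, 1.52, 0.353 and 0.401 with BAPN. All 11 BAPN-fed libraries had counts and no PBS library did, so Ccl17 passed the filter on low values through BAPN-fed libraries alone. Against a limit of 3 counts over the PBS group, Ccl17 was at least 41.8-fold higher in BAPN+SB273005 (adjusted p = 0.00388), at least 68.4-fold higher in BAPN+Cilengitide (adjusted p = 0.00554) and at least 31.6-fold higher in BAPN (adjusted p = 0.0391). The limit covers counting error alone. The receptor of Ccl17, Ccr4, reached no more than 0.0790 FPKM in any library and was not tested.

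In FPKM, the receptors ranked below most of the ligands in each group. Ccr1 (chr9:123962124-123968692, minus strand) had 2.62, 1.03, 0.855 and 1.63 FPKM in the BAPN+SB273005 libraries, 2.18, 1.84 and 1.36 FPKM with BAPN+Cilengitide, 1.77, 0.986, 0.730 and 1.88 FPKM with BAPN, and 1.04, 0.304 and 0.423 FPKM with PBS. PBS replicate 1 reached into the range of the BAPN+SB273005 and BAPN libraries, and the BAPN+Cilengitide libraries were all above PBS. No comparison passed for Ccr1, whose log2 difference from PBS was 1.47 ± 0.49 in BAPN+SB273005 (adjusted p = 0.0633), 1.68 ± 0.51 in BAPN+Cilengitide (adjusted p = 0.0741) and 1.22 ± 0.48 in BAPN (adjusted p = 0.316). Without PBS replicate 1 it passed in BAPN+SB273005 and in BAPN+Cilengitide (adjusted p = 0.0418 in the second), and without BAPN+SB273005 replicate 3 in BAPN+SB273005 (0.0314 to 0.0493 for the pair of omissions).

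Ccr2 (chr9:124101950-124113557, plus strand) had 3.24, 4.58, 1.21 and 1.74 FPKM in the BAPN+SB273005 libraries, 2.65, 2.80 and 1.72 FPKM with BAPN+Cilengitide, 4.09, 0.805, 0.746 and 1.42 FPKM with BAPN, and 0.909, 0.0918 and 0.124 FPKM with PBS. PBS replicate 1 was far above the other 2 PBS libraries and overlapped 2 BAPN libraries. Ccr2 rose 7.89-fold in BAPN+SB273005 against PBS (log2 2.98 ± 0.85, adjusted p = 0.0378). The difference was log2 2.78 ± 0.87 in BAPN+Cilengitide (adjusted p = 0.0815) and 2.29 ± 0.82 in BAPN (adjusted p = 0.263). Without PBS replicate 1 the difference was log2 4.66 in BAPN+SB273005, 4.47 in BAPN+Cilengitide, which then passed (adjusted p = 0.0254), and 3.98 in BAPN. Without BAPN replicate 1 the one in BAPN was log2 1.47. PBS replicate 1 also had the highest Ptprc, the pan-leukocyte gene Cd45, of all libraries (2.69 FPKM), and its part in the result was not tested. Ccr1l1 and Ccr3, which lie between Ccr1 and Ccr2, reached at most 0.160 and 0.0623 FPKM.

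The comparison of BAPN+SB273005 with PBS sets the aorta given both agents against one given neither. Of the 9 members, 6 rose (Ccl7, Ccl12, Ccl6, Ccl9, Ccl17 and Ccr2) and none fell, where 7.82% of all tested genes were called higher. FPKM did not overlap, and was higher, for 7 members, against 9.15% of all tested genes. The median log2 difference of the members was 1.91, against 0.02 over all tested genes, and it is the same with Ccl17 at its lower bound. Over all tested genes 1039 were called higher and 715 lower, a split that limma on log2(FPKM + 1) put at 705 and 922. DESeq2 called all 9 members, with 1485 of the 13294 tested genes called higher, and limma on log2(FPKM + 1) called 4. Within the 6 libraries without H2-Ea counts, BAPN+SB273005 replicates 1 to 3 against PBS, 2 members were called: Ccl9 (log2 1.72 ± 0.34, adjusted p = 0.0421) and Ccl17 (adjusted p = 0.0342). Of the 13294 tested genes 409 were called higher in that fit. Ccl12 there had log2 2.94 ± 0.77 (adjusted p = 0.0909), and Ccr2 had log2 3.16 ± 0.96 (adjusted p = 0.122). Without BAPN+SB273005 replicate 1 the log2 difference was 2.00 for Ccl7 and 1.94 for Ccl12. Ccl7 lost its call without BAPN+SB273005 replicate 1 or any 1 PBS library (adjusted p 0.0674 to 0.115), and Ccl12 without PBS replicate 2 (0.0502). Ccl6 lost it without BAPN+SB273005 replicate 1 or 4, BAPN+Cilengitide replicate 2 or any 1 PBS library (0.0549 to 0.123), and Ccr2 without BAPN+SB273005 replicate 1 or 2, BAPN+Cilengitide replicate 2, BAPN replicate 4, or PBS replicate 2 or 3 (0.0502 to 0.126).

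**Figure D3:**
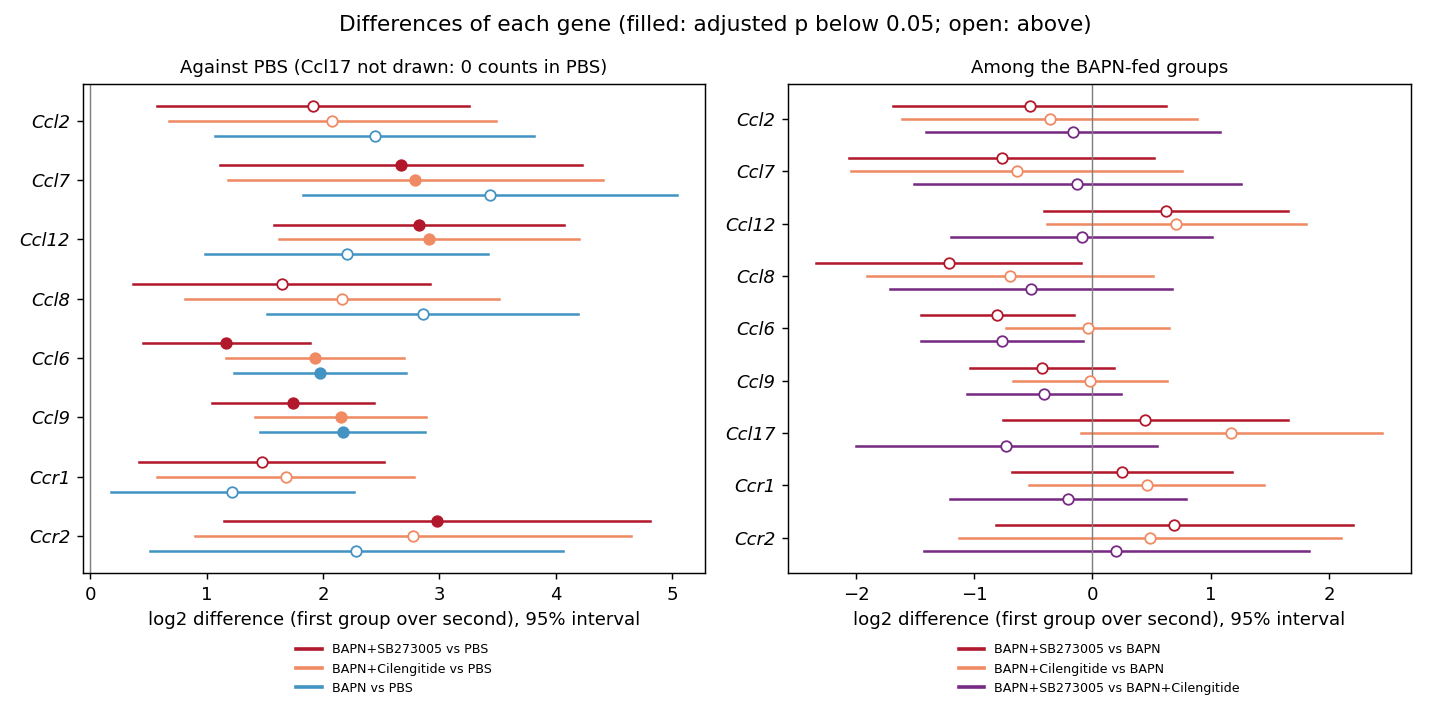
log2 differences with 95% intervals for each gene (rows) against PBS (left) and among the BAPN-fed groups (right), filled where the adjusted p was under 0.05. Against PBS every estimate drawn lies above 0, while among the BAPN-fed groups all points are open and most intervals span 0.

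BAPN+Cilengitide against PBS gave 5 members that rose (Ccl7, Ccl12, Ccl6, Ccl9 and Ccl17) and none that fell, where 3.98% of all tested genes were called higher. All 9 members had FPKM above PBS without overlap, against 13.5% of all tested genes. The members' median log2 difference was 2.16, against -0.02 over all tested genes. Over all tested genes 529 were called higher and 213 lower, against 354 and 262 by limma on log2(FPKM + 1). DESeq2 called all 9 members, with 962 of the 13294 tested genes called higher. With the H2-Ea library set as a term in the fit, which rests on BAPN+SB273005 replicate 4 against replicates 1 to 3, no member was called, with Ccl9 at log2 2.01 and Ccl6 at 1.38. Of the 13294 tested genes 4 were called higher in that fit, so the lack of calls is not particular to the members. Ccl7 lost its call in 9 of the 14 fits with 1 library left out: BAPN+SB273005 replicate 4, any BAPN+Cilengitide library, BAPN replicate 1 or 4, or any PBS library (adjusted p 0.0513 to 0.160). Ccl12 lost it without BAPN+Cilengitide replicate 1 or PBS replicate 1 or 2 (0.0558 to 0.0726), and Ccl6 without PBS replicate 2 (0.0568).

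BAPN against PBS sets the model without an inhibitor against no BAPN. All BAPN libraries had H2-Ea counts and no PBS library did, so BAPN and that split cannot be told apart here. Of the 9 members 3 rose (Ccl9, Ccl6 and Ccl17) and none fell, where 0.181% of all tested genes, 24 of them, were called higher. FPKM lay above PBS without overlap for 7 members, all but Ccr1 and Ccr2, against 7.02% of all tested genes. The median log2 difference was 2.29 for the members and 0.00 over all tested genes. DESeq2 called 7 members, limma on log2(FPKM + 1) called 1 and a fit of all genes with a count called 0. Over all genes of each fit, 349 were called higher by DESeq2, 11 by limma and 2 in the fit of all genes with a count. With the H2-Ea library set as a term no member was called, and 2 of the 13294 tested genes were called higher. Every one of the 3 calls depended on single libraries: Ccl9 lost its call in 7 of the 14 fits with 1 library left out (BAPN replicate 1, 2 or 4, BAPN+Cilengitide replicate 2 or any PBS library, adjusted p 0.0547 to 0.144). Ccl17 lost it in 9, the same libraries and BAPN+Cilengitide replicates 1 and 3 (0.0547 to 0.144), and Ccl6 in 10, those 9 and BAPN+SB273005 replicate 3 (0.0528 to 0.160). Their log2 differences in these fits stayed between 2.02 and 2.35 for Ccl9 and between 1.79 and 2.18 for Ccl6. Without BAPN+SB273005 replicate 1, 6 members were called, and without BAPN+SB273005 replicate 2, 5 were. Over all 13294 tested genes the genes called higher also grew in number, from 24 to 91 and 131 in these 2 fits.

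BAPN+SB273005 against BAPN asks what the inhibitor changed in the BAPN-fed aorta. None of the 9 members passed, where 0.0301% of all tested genes were called. DESeq2 and limma also called none, and edgeR's unadjusted p was under 0.05 for 2 members. These were Ccl6, with 15.9 ± 6.2 FPKM in BAPN+SB273005 and 28.7 ± 10.7 FPKM in BAPN (SD, n = 4 each), a log2 difference of -0.80 ± 0.30 (adjusted p = 0.232), and Ccl8, with 5.52 ± 3.45 FPKM and 13.3 ± 9.4 FPKM in the same groups, a log2 difference of -1.21 ± 0.52 (adjusted p = 0.276). For both the libraries of the 2 groups overlapped. The 95% intervals were wide: -1.45 to -0.16 for Ccl6, -1.03 to 0.18 for Ccl9, -2.06 to 0.52 for Ccl7 and -0.82 to 2.20 for Ccr2. The ratio of Ccl6 to Ccl9 FPKM was 1.60 ± 0.25 in BAPN+SB273005 and 2.06 ± 0.13 in BAPN (SD, n = 4 each), which was not tested. BAPN+SB273005 replicates 1 to 3 and all BAPN libraries also differ by H2-Ea, and with that set as a term no member was called, against 12 of the 13294 tested genes.

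BAPN+Cilengitide against BAPN also gave no call among the 9 members, and edgeR called 0.00% of all tested genes (807 had an unadjusted p under 0.05, and DESeq2 called 21). No member had an unadjusted p under 0.05 by edgeR, and DESeq2 called none. The estimates nearest 0 were those of Ccl9, log2 -0.02 (95% interval -0.67 to 0.64), and Ccl6, log2 -0.04 (-0.73 to 0.65), so a change up to about that size could be present. Ccl12 and Ccl17 were higher in BAPN+Cilengitide without overlap of the FPKM values, as were 2.68% of all tested genes. Ccl12 averaged 7.70 ± 0.87 FPKM in BAPN+Cilengitide (SD, n = 3) and 4.80 ± 1.25 FPKM in BAPN (n = 4), a log2 difference of 0.71 ± 0.51 (adjusted p = 0.835). Ccl17 averaged 1.87 ± 0.51 FPKM and 0.841 ± 0.564 FPKM in these groups, a log2 difference of 1.18 ± 0.58 (adjusted p = 0.795).

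The 2 inhibitor groups were compared at week 6 with doses that the labels do not give, 1 pair of compounds and 9 genes. No member passed in BAPN+SB273005 against BAPN+Cilengitide, and 0.00% of all tested genes were called (1224 had an unadjusted p under 0.05, and DESeq2 called 39). Ccl6 was the member with an unadjusted p under 0.05 by edgeR: its 4 BAPN+SB273005 libraries, at 15.9 ± 6.2 FPKM, were all below the 3 BAPN+Cilengitide libraries, at 27.1 ± 2.9 FPKM (log2 -0.76 ± 0.32, adjusted p = 0.529). Of all tested genes 3.87% were lower without overlap in this comparison. BAPN+SB273005 replicates 1 to 3 also differ from all BAPN+Cilengitide libraries by H2-Ea. In BAPN+SB273005 replicate 4, which had H2-Ea counts, Ccl6 stood at 20.7 FPKM, and in the lowest BAPN+Cilengitide library at 24.6 FPKM. The other 8 members had intervals that spanned 0, such as -1.06 to 0.24 for Ccl9, -1.71 to 0.67 for Ccl8 and -1.42 to 1.83 for Ccr2. The intervals of all 9 members, that of Ccl6 (-1.45 to -0.08) included, allow differences of more than 2-fold, so the data do not show that the compounds act alike.

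Within groups the members varied together to different degrees. Pearson's r of log2(FPKM + 1), with each library centred on its group's mean, was computed over the 14 libraries for the 36 pairs of members as a description. The median r was 0.52 (lowest -0.08, highest 0.92), and 34 of the 36 were above 0. Ccl6 and Ccl9 were the closest pair (0.923), followed by Ccl9 with Ccr1 (0.826), Ccl8 with Ccr1 (0.815) and Ccl2 with Ccl7 (0.81). Ccr2 stood apart from the ligands that bind it: its r was 0.18 with Ccl2, -0.07 with Ccl7 and 0.06 with Ccl12, against 0.58 with Ccr1 and 0.52 with Ccl17. The libraries share depth and cell makeup as sources of such correlation.

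**Figure D4:**
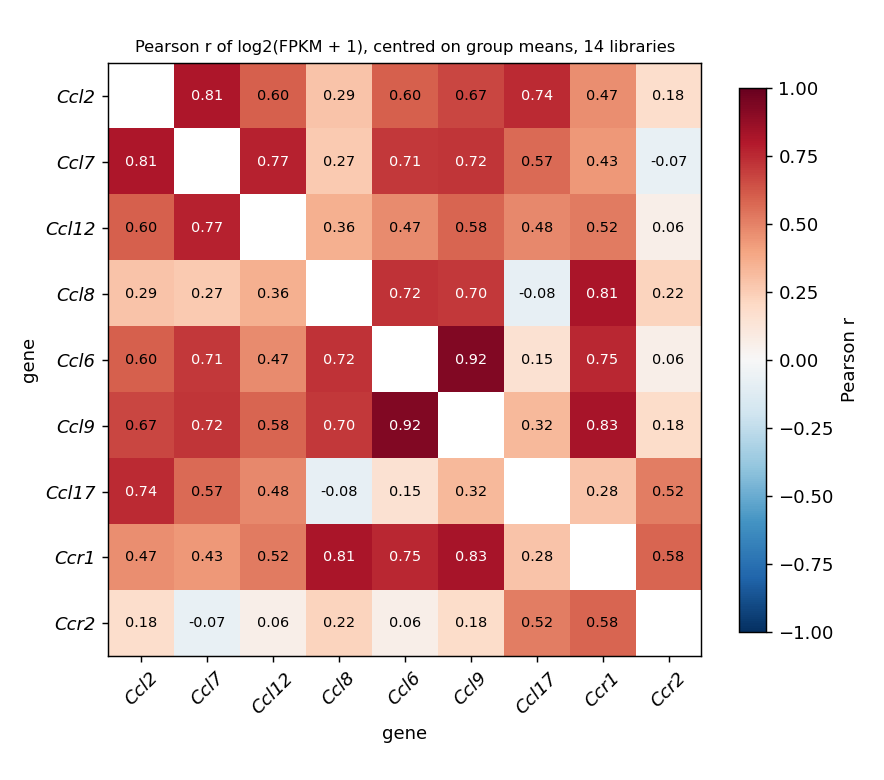
Pearson r between each 2 of the 9 genes (rows and columns), from log2(FPKM + 1) centred on group means over 14 libraries. The squares of Ccl6, Ccl9, Ccl8 and Ccr1 are dark red, at 0.70 to 0.92 among themselves, while the row of Ccr2 is pale against the ligands, from -0.07 to 0.22 except for Ccl17 at 0.52.

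The same measure was used to find the 3 tested genes most like each member. For Ccr2 they were Cd300c2 (0.955), Mpeg1 (0.947) and Tyrobp (0.944), all known from myeloid cells. For Ccl9 they were Slc3a2 (0.947), Klf16 (0.934) and Pdcd2l (0.921). Ccl17 was nearest to Ch25h (0.955), a cholesterol hydroxylase. Ccl2 was nearest to Bcl3 (0.901), an NF-κB family cofactor, Ccl12 to Nars (0.913), Ccl7 to Ugdh (0.891), Ccl8 to Cd8b1 (0.887), Ccl6 to Gm18588 (0.919) and Ccr1 to Tpm3-rs7 (0.920). With 13294 genes to choose from and 14 libraries, a high r can arise for any gene.

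The transcript table split the members into 17 transcripts. Ccl7, Ccl8, Ccl17 and Ccr1 had 1 coding transcript each, and 1 coding transcript carried 97.7% or more of Ccl6 and of Ccl9 in every group. Ccl2 was divided between its coding transcript and a transcript with a retained intron, which held 22.8% of its transcript FPKM in BAPN+SB273005, 29.1% in BAPN+Cilengitide, 22.1% in BAPN and 44.2% in PBS. The coding form averaged 2.36 ± 1.48 FPKM in BAPN+SB273005 (SD, n = 4), 2.41 ± 1.69 FPKM in BAPN+Cilengitide (n = 3), 3.58 ± 2.99 FPKM in BAPN (n = 4) and 0.440 ± 0.550 FPKM in PBS (n = 3), and 1 PBS library was at 0. Ccr2 had 4 coding transcripts, of which ENSMUST00000168841 held 59.3% in BAPN+SB273005, 64.7% in BAPN+Cilengitide, 58.5% in BAPN and 51.3% in PBS. Another of the 4, ENSMUST00000165984 with 1 exon, held 45.3% in PBS and 15.5% to 21.8% in the BAPN-fed groups. In PBS all of the FPKM of ENSMUST00000168841 came from a single library, at 0.843 FPKM, so the pooled PBS shares of Ccr2 describe no typical PBS library. These shares are the authors' estimates and were not tested.

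Other CC family genes were counted as lists. Of 13 other CC chemokines 8 were tested: 3 rose in BAPN+SB273005 against PBS (Ccl3, Ccl4 and Ccl21a; median log2 difference of the list 0.55), 2 in BAPN+Cilengitide (Ccl3 and Ccl4; median 0.66) and 0 in BAPN by edgeR (median 0.86; 3 with an unadjusted p under 0.05). Ccl3, a ligand of Ccr1, averaged 1.19 ± 0.98 FPKM in BAPN+SB273005, 1.38 ± 0.53 FPKM in BAPN+Cilengitide, 0.993 ± 0.171 FPKM in BAPN and 0.0806 ± 0.0403 FPKM in PBS (SD, n = 4, 3, 4 and 3). Its log2 difference from PBS was 3.81 ± 0.71 in BAPN+SB273005 (adjusted p = 0.00656) and 3.98 ± 0.73 in BAPN+Cilengitide (adjusted p = 0.0120). Ccl4, a macrophage inflammatory protein related to Ccl3, rose by log2 2.87 ± 0.82 in BAPN+SB273005 (adjusted p = 0.0387) and 3.42 ± 0.86 in BAPN+Cilengitide (adjusted p = 0.0370). Ccl21a, a chemokine of lymphatic vessels that guides dendritic cells, rose by log2 2.93 ± 0.86 in BAPN+SB273005 (adjusted p = 0.0422), and has near-identical copies between which the counting could split reads.

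Cx3cl1, a membrane-bound chemokine of endothelium, and its receptor Cx3cr1 both rose in BAPN+SB273005 and BAPN+Cilengitide against PBS, Cx3cr1 by log2 4.21 ± 0.87 in BAPN+SB273005 (adjusted p = 0.0103) and 4.33 ± 0.90 in BAPN+Cilengitide (adjusted p = 0.0176). Cx3cl1 averaged 20.9 ± 9.2 FPKM in BAPN+SB273005, 21.9 ± 8.1 FPKM in BAPN+Cilengitide, 11.1 ± 3.8 FPKM in BAPN and 4.995 ± 0.315 FPKM in PBS, with adjusted p = 0.00427 for BAPN+SB273005 and 0.00751 for BAPN+Cilengitide. None of the 3 tested decoy and atypical receptors (of Ackr1 to Ackr4) passed in any comparison. Of 19 tested genes of receptor signalling 1 rose and 1 fell in BAPN+SB273005, about the share of all 13294 tested genes (1039 higher and 715 lower), so the calls say nothing particular about the list: Arrb2, an arrestin that desensitises receptors, had a log2 difference of 1.58 ± 0.31 there (adjusted p = 0.00802), and Grk3, a receptor kinase, fell there (-0.71 ± 0.17, adjusted p = 0.0200) and in BAPN+Cilengitide (-0.93 ± 0.19, adjusted p = 0.0157). Of 16 tested inducers 3 rose in BAPN+SB273005 and 2 in BAPN+Cilengitide, where 7.82% and 3.98% of all tested genes were called higher. Il1b rose in BAPN+SB273005 (log2 2.59 ± 0.70, adjusted p = 0.0311) and BAPN+Cilengitide (3.09 ± 0.73, adjusted p = 0.0295), as did the macrophage growth factor Csf1 (0.82 ± 0.21 in BAPN+SB273005, adjusted p = 0.0246, and 0.99 ± 0.22 in BAPN+Cilengitide, adjusted p = 0.0244). Nfkb1 rose by log2 0.31 ± 0.09 in BAPN+SB273005 (adjusted p = 0.0447). The median log2 difference of the signalling list was 0.19 in BAPN+SB273005, 0.20 in BAPN+Cilengitide and 0.02 in BAPN against PBS, and that of the inducers was 0.30 in BAPN+SB273005, 0.15 in BAPN+Cilengitide and 0.06 in BAPN. None of the genes of these lists passed in BAPN against PBS.

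Most macrophage, monocyte and neutrophil markers averaged higher in the BAPN-fed groups along with the members, while lymphocyte markers and Ptprc passed in no comparison with PBS. The monocyte marker Ly6c2, which was not tested, averaged 0.741 FPKM in BAPN+SB273005, 0.629 FPKM in BAPN+Cilengitide, 0.554 FPKM in BAPN and 0.828 FPKM in PBS. Mertk and Cd163 passed in no comparison with PBS. Of 12 macrophage and monocyte markers 11 were tested, of which 9 rose in BAPN+SB273005 against PBS (median log2 difference 2.22), 8 in BAPN+Cilengitide (median 2.09) and 1, Mrc1, in BAPN (median 1.56). Their summed level was 320 to 804 FPKM in BAPN+SB273005, 330 to 647 FPKM in BAPN+Cilengitide, 205 to 524 FPKM in BAPN and 106 to 226 FPKM in PBS, and none was at 0 in a whole group. Most of this sum was the single gene Lyz2, which reached 235 to 679 FPKM in BAPN+SB273005, 249 to 505 FPKM in BAPN+Cilengitide, 143 to 416 FPKM in BAPN and 74.7 to 190 FPKM in PBS. Cx3cr1 is in this list and in the pair above. BAPN replicate 2, with 205 FPKM of these markers, was the highest library for Ccl2 and Ccl7. BAPN+SB273005 replicate 2 had the highest marker sum, the highest Ccr2 and the lowest summed ligands of the BAPN-fed libraries. The same library had 17.93% mitochondrial counts and the lowest smooth muscle sum, 1162 FPKM. These are single libraries, and a link between marker sum and members was not tested. All 3 tested of 6 neutrophil markers rose in both inhibitor groups against PBS, and none passed in BAPN. Their sum was 4.14 to 8.72 FPKM in BAPN+SB273005, 2.37 to 4.55 FPKM in BAPN+Cilengitide, 2.86 to 3.82 FPKM in BAPN and 0.234 to 0.659 FPKM in PBS, where Retnlg and Mmp8 were at 0. Of the dendritic cell markers 3 of 6 were tested and Cd209a rose in BAPN+SB273005. The T cell list, with 1 of 6 tested, summed to 1.32 to 4.39 FPKM in BAPN+SB273005, 0.671 to 3.09 FPKM in BAPN+Cilengitide, 0.571 to 3.29 FPKM in BAPN and 2.36 to 10.6 FPKM in PBS, and Lck did not pass. Cd79a, a B cell marker, averaged 1.05 ± 0.70 FPKM in BAPN+SB273005 (n = 4), 0.600 ± 0.630 FPKM in BAPN+Cilengitide (n = 3), 0.606 ± 0.370 FPKM in BAPN (n = 4) and 11.2 ± 18.8 FPKM in PBS (n = 3), where 1 library reached 32.8 FPKM. Its log2 difference from PBS was -3.25 in BAPN+SB273005, -4.09 in BAPN+Cilengitide and -4.11 in BAPN (adjusted p 0.116, 0.142 and 0.203). The log2 difference of Ptprc from PBS was 0.39 in BAPN+SB273005, 0.02 in BAPN+Cilengitide and -0.73 in BAPN. These differences depend on PBS replicate 1, where Ptprc stood at 2.69 FPKM, against 0.265 and 0.223 FPKM in PBS replicates 2 and 3. Every BAPN-fed library lay in between, at 0.624 to 1.92 FPKM in BAPN+SB273005, 0.690 to 1.29 FPKM in BAPN+Cilengitide and 0.331 to 1.11 FPKM in BAPN.

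Markers of the other cells of the wall also differed between the groups. Of 6 fibroblast markers, 4 rose in BAPN+SB273005 against PBS (Dcn, Lum, Col1a1 and Col3a1; Lum by log2 2.02 ± 0.45, adjusted p = 0.0133), 2 in BAPN+Cilengitide (Lum and Col1a1) and 0 in BAPN by edgeR, with 3 at an unadjusted p under 0.05. Their sum was 1491 to 3227 FPKM in BAPN+SB273005, 1889 to 2600 FPKM in BAPN+Cilengitide, 1285 to 2736 FPKM in BAPN and 929 to 1155 FPKM in PBS. Of 6 smooth muscle markers, 3 fell in BAPN+SB273005 against PBS (Myh11, Smtn and Lmod1; Lmod1 by log2 -1.32 ± 0.29, adjusted p = 0.0136), and none passed in the other 2 groups. Cdh5 was the 1 of 5 endothelial markers that rose, in BAPN+SB273005 (log2 1.53 ± 0.46, adjusted p = 0.0441). Kidney tubule markers, which an aorta should lack, summed to 242 to 353 FPKM in BAPN+SB273005, 248 to 263 FPKM in BAPN+Cilengitide, 198 to 266 FPKM in BAPN and 245 to 297 FPKM in PBS. Of these 5, Slc12a1 rose in all 3 groups against PBS and Umod in BAPN+Cilengitide and BAPN (Umod by log2 1.43 ± 0.25 and Slc12a1 by 1.01 ± 0.18 in BAPN, adjusted p = 0.0431 for each), and Slc22a6 in BAPN+Cilengitide. Umod and Slc12a1 are thus 2 of the 24 genes called higher in BAPN. The part of any of these cells in the members' differences was not tested.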

How the data were processed

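Total RNA was isolated with Trizol and copied to cDNA by SuperScript II, per the labels' protocols. The submitters' processing notes list HISAT2 (version 2.2.1), StringTie (version 2.1.6) and the build mm10. The annotation release and strand setting are not known from them. FPKM values per gene and transcript are as deposited by the authors, scaled to transcript length and library size. The deposited estimated counts are the authors' whole numbers per gene, used unchanged. All columns were mapped to samples.

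The filter kept 13294 genes that reached 1 FPKM in 3 libraries or more, and these carry 98.84% or more of each library's counts. Ccl7, Ccl17 and Ccr2 reached 1 FPKM in no PBS library and passed the filter through BAPN-fed libraries alone. edgeR 4.0.16 in R 4.3.3 (TMM, quasi-likelihood F test, 1 fit over 14 libraries and 4 groups) gave log2 differences, and p-values were adjusted by Benjamini-Hochberg over all tested genes for each of 6 comparisons (threshold 0.05). SEs are the log2 difference over the square root of F, so 95% intervals are approximate. Since the counts are estimates, edgeR's counting error is approximate. Levels are mean ± SD. Alternatives used DESeq2 1.42.0 and limma 3.58.1.

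Replicates within groups differed by more than sampling noise in all 18 pairs (chi-square per degree of freedom 45.0 or more). The members, gene lists, library sets and tests were chosen with earlier results of these data known. The named genes are the 9 members, the 3 most like each by correlation, and genes of the fixed lists, of which those that passed are named; Ccr8, Ccr4 and the genes between members were named after their values were seen. Gene positions matched GENCODE M21 for 9 of 9 members, and promoter stretches are RefSeq's on GRCm38.p6. Some results are not reported here.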

Additional observations from a re-analysis of the deposited data

Results flagged for a closer look

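In groups of 4 libraries, a gene was picked out where its highest or lowest library's gap to the next took a larger share of the group's range than Dixon's 95% critical value. Of 18 groups tested 3 met this, and chance gives about 1 in 20. Ccl2 in BAPN replicate 2 stood at 7.18 FPKM, with a gap of 0.884 of the range to the next BAPN library. Ccl7 in the same library stood at 20.0 FPKM (gap 0.846). Ccl8 in BAPN replicate 4 stood at 27.3 FPKM (gap 0.845). BAPN replicate 2 had 205 FPKM of macrophage and monocyte markers, a sum that is mostly Lyz2 and the lowest of the BAPN-fed libraries. Without BAPN replicate 2 the log2 difference of BAPN from PBS was 1.83 for Ccl2 and 2.58 for Ccl7, and without BAPN replicate 4 it was 2.24 for Ccl8.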

How the results depend on the processing

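All 9 members kept a positive log2 difference from PBS in every comparison and setting run, but which of them passed depended on the setting, and the cause was not tested. In BAPN+SB273005 vs. PBS, where 6 were called, 3 were called with no filter and 2 each in a fit of the groups compared or of the libraries with 0 H2-Ea counts (2 to 7 with 1 library left out, with 2 without PBS replicate 2 and 3 without PBS replicate 3 or BAPN+SB273005 replicate 1). Over all genes of each fit, 555 were called higher with no filter, 390 with the groups compared and 409 with 0 H2-Ea counts. In BAPN+Cilengitide vs. PBS, where 5 were called, DESeq2 called 9 and the library set as a term left 0, with 5 at an unadjusted p under 0.05 (2 to 6 with 1 library left out, with 2 without PBS replicate 2 and 3 without BAPN+Cilengitide replicate 1). In BAPN vs. PBS, where 3 were called, DESeq2 called 7, limma on log2(FPKM + 1) called 1, and no filter and the library set term left 0, with 9 and 6 at an unadjusted p under 0.05 (0 to 6 with 1 library left out; 0 without BAPN replicate 1, 2 or 4, BAPN+Cilengitide replicate 2 or any PBS library, and 1 without BAPN+Cilengitide replicate 1 or 3). With the library set term, 4 of all tested genes were called higher in BAPN+Cilengitide vs. PBS and 2 in BAPN vs. PBS. The other 3 comparisons had 0 members called in all settings, with at most 2 members at an unadjusted p under 0.05 in the settings that kept all libraries.

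The labels do not say whether replicate numbers mark a shared source. Same-numbered libraries correlated at -0.2 to 0.37 in 19 pairs, over 0.1 in 12 of them, and 9 of 14 libraries correlated best with their own number, which is a hint of pairing in the data; since not every pair was over 0.1, the libraries were not treated as pairs. With the replicate block 7 members were called in BAPN+SB273005 vs. PBS, 8 in BAPN+Cilengitide vs. PBS and 5 in BAPN vs. PBS. Of the 13294 tested genes, 1118, 676 and 119 were called higher with the block, in that order. Ccl2 then passed in all 3 (adjusted p 0.0157, 0.0208 and 0.0321 in that order), and Ccl7 in none (0.0661, 0.0653 and 0.0983). With the block, BAPN+Cilengitide vs. BAPN was log2 0.16 for Ccl6 and 0.07 for Ccl9, against -0.04 and -0.02, and Ccl6 was 0.00 by limma on log2(FPKM + 0.1). With the library set term, Ccl17 was -0.44 in BAPN+SB273005 vs. BAPN, and BAPN+SB273005 vs. BAPN+Cilengitide was 0.03 for Ccl7 and -0.44 for Ccr2.

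Leaving out 1 library turned the sign of uncalled differences. In BAPN+SB273005 vs. BAPN the ranges were -0.99 to 0.08 for Ccl2, -1.43 to 0.08 for Ccl7, -0.27 to 0.89 for Ccl12 and -0.13 to 0.45 for Ccr1. In BAPN+Cilengitide vs. BAPN they were -0.76 to 0.25 for Ccl2, -0.90 to 0.21 for Ccl7, -0.25 to 0.14 for Ccl6 and -0.20 to 0.15 for Ccl9. In BAPN+SB273005 vs. BAPN+Cilengitide they were -0.63 to 0.23 for Ccl2, -0.79 to 0.15 for Ccl7, -0.98 to 0.17 for Ccl12 and -0.22 to 0.44 for Ccr2. Over all tested genes and the settings that leave out no single library, calls ran from 532 to 2607 in BAPN+SB273005 vs. PBS (1754 as reported), 5 to 1465 in BAPN+Cilengitide vs. PBS (742) and 3 to 480 in BAPN vs. PBS (31). With 1 library left out, calls over all tested genes ran from 498 to 1988, 109 to 1249 and 2 to 186, in that order. Low counts limit Ccl17 (12 to 80 where present) and Ccr2 in PBS (47 and 61 in 2 libraries). Other members were also low in PBS, at 35 to 57 counts for Ccl7, 25 to 53 for Ccl12, 38 to 76 for Ccl8, 20 to 76 for Ccl2 and 64 to 172 for Ccr1.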
